A study of Mus musculus with 17 samples.

Results

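The transcripts described here are the long intergenic noncoding RNAs (lincRNAs) with appreciable expression in mouse skin. They were taken from the deposited expression table as the rows whose biotype is lincRNA and whose FPKM (assigned fragments scaled to exon length and to library total) was at least 1 in at least 8 of the 17 libraries. H19, Meg3 and rows on chromosomes X and Y were left out. Of 34140 genes in the table, 3177 were lincRNA rows, 157 of those reached the level, and 154 remained. These 154 lincRNAs were thus selected on their FPKM levels, so their levels are given as a description, with no test.

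Skin of C57/BL6j mice was profiled by RNA sequencing to look for molecules with a part in the healing of irradiated wounds, and the title of the series names TGF-β1 and SMAD signalling. The groups were irradiated skin at day 3 (3 libraries), day 6 (2) and day 9 (3) after injury, and control skin at day 3 (2), day 6 (2), day 9 (3) and day 0 (2). All are of the same genotype, no irradiated library is labelled day 0, and the radiation dose and the ages of the mice are not stated in the labels. Nothing in the labels ties libraries to individual mice. The p-values below therefore measure only the spread between these samples, which may be technical.

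Long noncoding RNAs are transcripts without a long open reading frame. Some act as RNA, such as Neat1, which builds the nuclear bodies called paraspeckles, and Malat1, which gathers in nuclear speckles. Others serve as precursors whose introns or exons yield microRNAs or small nucleolar RNAs (snoRNAs), and many have no assigned role. A microRNA pairs with its target messenger RNAs mainly through its seed, bases 2 to 8.

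Among the 154 lincRNAs, 10 contained 29 mature microRNAs on their own strand by RefSeq coordinates (GRCm38.p6, the patch release of the mm10 build). The mature sequences below are a selection from the hosts that are described by their microRNAs in the results, printed 5′ to 3′ with the seed in capitals. The deposited table measures the host transcripts, not the mature microRNAs.

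Gm28653 (chr1:20679023-20684298, plus strand) spans the muscle microRNAs miR-206 and miR-133b, which act in myoblast differentiation.
mmu-miR-206-3p: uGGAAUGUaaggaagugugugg
mmu-miR-133b-5p: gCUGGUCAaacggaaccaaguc
mmu-miR-133b-3p: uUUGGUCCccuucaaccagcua

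Mir142hg (chr11:87755577-87757270, plus strand) is the precursor of miR-142, a microRNA of blood cells.
mmu-miR-142a-5p: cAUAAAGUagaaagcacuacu
mmu-miR-142a-3p: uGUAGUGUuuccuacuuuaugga

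E130102H24Rik (chr4:101346531-101356735, minus strand) contains miR-101a, and 4631405K08Rik (chr1:193507238-193510174, minus strand) contains miR-205, a microRNA abundant in squamous epithelium.
mmu-miR-101a-3p: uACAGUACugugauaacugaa
mmu-miR-205-5p: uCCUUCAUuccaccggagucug

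Mir17hg (chr14:115042879-115046727, plus strand) carries 11 mature microRNAs of the miR-17-92 cluster, which promotes proliferation. Within it miR-17-5p and miR-20a-5p share the seed AAAGUGC, and miR-19a-3p and miR-19b-3p share the seed GUGCAAA.
mmu-miR-17-5p: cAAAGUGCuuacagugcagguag
mmu-miR-20a-5p: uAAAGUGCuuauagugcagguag
mmu-miR-19a-3p: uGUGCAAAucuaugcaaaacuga
mmu-miR-19b-3p: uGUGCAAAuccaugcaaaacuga

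The other 5 hosts were 6720427I07Rik with let-7d, Gm27028 with miR-30c, 2900076A07Rik with miR-1839, AC140477.3 with miR-3069 and Snhg20 with miR-6516.

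Over the 154 lincRNAs the median of the mean levels was 1.98 FPKM, 78 had a mean under 2 FPKM and 14 a mean of at least 10 FPKM. The members at 1 FPKM or more numbered 124 to 144 per library at days 3 to 9 and 118 and 124 in the day-0 libraries. Of the 154, 68 stood at 1 FPKM or more in all 17 libraries and 12 in exactly 8. All 154 reached 1 FPKM in at least one irradiated and at least one control library of days 3 to 9, and 20 did so in neither day-0 library. Because 8 libraries were required, a lincRNA expressed at day 0 alone could not be included. The members just inside the limit, by mean level, were Gm36546 (2.48 FPKM), Gm16194 (1.19 FPKM) and Gm11216 (1.08 FPKM). Just outside it, at 7 libraries, were Gm13943 (1.14 FPKM), Miat (1.09 FPKM) and Gm38910 (0.981 FPKM).

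**Figure D1:**
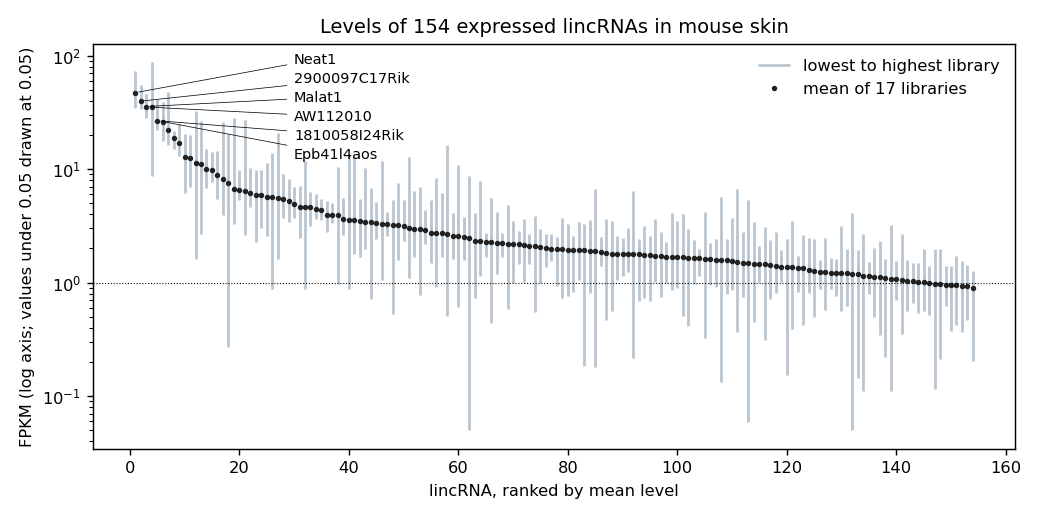
Mean level of each of the 154 lincRNAs in FPKM (dots, log axis), ranked from highest to lowest, with a line spanning the lowest to the highest of the 17 libraries. A few lincRNAs led by Neat1 (47.1 FPKM) stand above a long run of transcripts near 2 FPKM.

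The 6 lincRNAs with the highest mean over the 17 libraries were Neat1 (47.1 FPKM), 2900097C17Rik (39.7 FPKM), Malat1 (35.5 FPKM), AW112010 (35.0 FPKM), 1810058I24Rik (26.7 FPKM) and Epb41l4aos (26.2 FPKM). 2900097C17Rik is the mouse counterpart of Norad, an RNA that binds Pumilio proteins. AW112010 is an interferon-inducible transcript of mouse leukocytes that has also been reported to encode a protein. 1810058I24Rik encodes a small mitochondrial protein, and RefSeq lists it as protein coding. Epb41l4aos is read from the strand opposite Epb41l4a. The table assigns the biotype, and RefSeq did not always give the same one. Of the 154, 76 were lncRNA in RefSeq, 5 were protein coding, 1 was a transcribed pseudogene and 72 found no match. The 5 were 1810058I24Rik, Gm6712, Zfp469, Tmem250-ps and Lsmem2.

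The libraries held 25440773 to 30797409 assigned fragments, recovered from the FPKM steps. Exon lengths ran from 154 to 20771 bases with a median of 1430.5. The skin label was met in every library by keratinocyte markers, whose 4 genes (Krt1, Krt5, Krt10 and Krt14) summed to 1857 to 16051 FPKM. The skeletal muscle marker genes Acta1, Ckm and Myh4 summed to 616 to 2489 FPKM at days 3 to 9, against 9778 to 11494 FPKM in day-0 libraries. Mitochondrially encoded genes took 8.33% to 12.6% of summed FPKM at days 3 to 9 and 21.7% and 31.8% at day 0. In bulk tissue, fewer cells of a type and less RNA per cell cannot be told apart. The 2 irradiated day-6 libraries were least alike (Pearson's r 0.945 across genes, which are not independent replicates), and in other groups the lowest r was 0.949.

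Irradiated skin was compared with control skin at each day and over the 3 days with equal weight. Few lincRNAs passed the test. Averaged over days 3, 6 and 9, 9530082P21Rik was higher in irradiated skin and AC153541.3 and Gm27010 were lower, which made 3 of 154 called (1.95%), against 6.93% of all 15271 tested genes. Here and below a gene is called at an adjusted p under 0.05 in a limma fit adjusted over all tested genes, and changes are log2 fold changes of FPKM + 1. Those changes understate the fold of transcripts near 1 FPKM. The 1 lincRNA higher compares with 4.36% of all genes higher, and the 2 lower with 2.57% lower. The median change of the 154 was -0.03, and that of all genes -0.01.

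**Figure D2:**
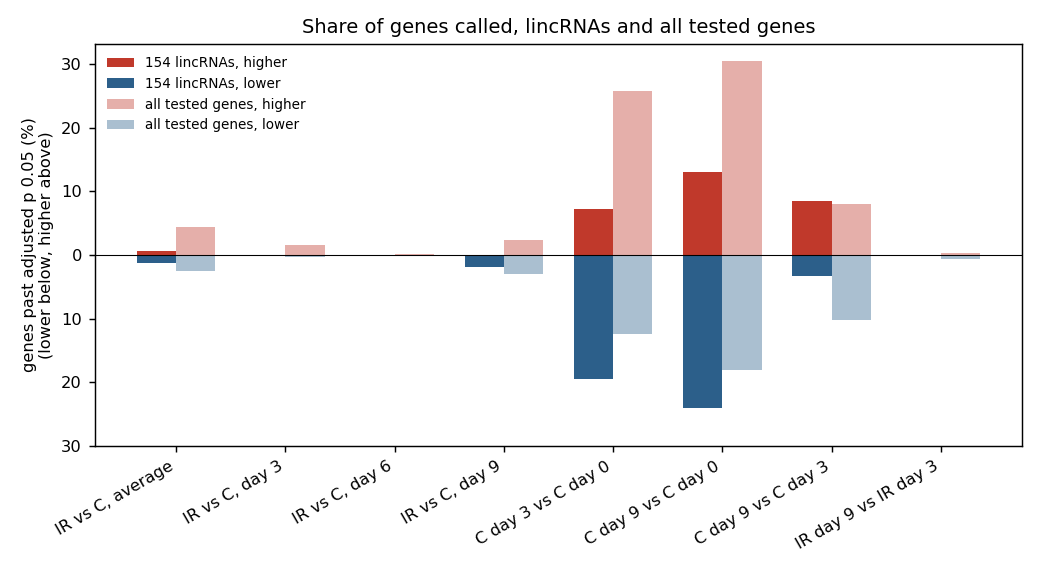
Percentage of the 154 lincRNAs (full colour) and of all 15271 tested genes (pale) called higher (red, above 0) or lower (blue, below 0) in 8 comparisons (IR, irradiated; C, control). Between irradiated and control skin few lincRNAs were called, and between wound days of control skin 18 to 57 were.

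Gm27010 (chr14:61625926-61627337, minus strand), which has no assigned role, had 1.92, 1.82 and 1.5 FPKM in irradiated skin at day 3, against 1.77 and 2.03 FPKM in control skin. At day 6 it had 1.02 and 1.17 FPKM in irradiated skin, against 1.57 and 2.78 FPKM in control skin. At day 9 it had 2.83, 2.2 and 2.27 FPKM in irradiated skin, against 3.62, 3.53 and 3.60 FPKM in control skin. The arms overlapped at day 3 and did not at days 6 and 9. The averaged change was -0.36 (SE 0.09, adjusted p 0.0336).

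AC153541.3 (chr10:38116245-38122061, minus strand) had 1.22, 1.28 and 0.895 FPKM in irradiated skin at day 3, against 1.40 and 2.15 FPKM in control skin. At day 6 it had 0.132 and 0.675 FPKM in irradiated skin, against 1.07 and 1.80 FPKM in control skin. At day 9 the values were 0.410, 0.819 and 1.14 FPKM in irradiated skin, against 1.34, 0.761 and 1.62 FPKM in control skin. The arms did not overlap at days 3 and 6 and overlapped at day 9, and the averaged change was -0.50 (SE 0.14, adjusted p 0.048). Its values rest on 1 to 45 fragments per library.

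9530082P21Rik (chr17:23743234-23754065, plus strand), which overlaps the opposite-strand gene Kremen2, had 6.07, 5.73 and 4.97 FPKM in irradiated skin at day 3, against 3.86 and 3.75 FPKM in control skin. At day 6 it had 4.12 and 5.47 FPKM in irradiated skin, against 3.62 and 3.81 FPKM in control skin. The arms did not overlap at days 3 and 6. At day 9 they overlapped, with 4.54, 4.29 and 4.39 FPKM in irradiated skin and 3.83, 4.47 and 4.15 FPKM in control skin. The averaged change was 0.27 (SE 0.07, adjusted p 0.0474). Smart-Seq2 libraries do not mark strand, so reads of overlapping genes on opposite strands cannot be told apart. All 3 of these calls ended with no filter on low values (adjusted p 0.0715 to 0.0968), on recovered fragments (0.0508 to 0.0683) and without either control day-3 library (0.0659 to 0.143). After the FPKM were rescaled to nuclear genes the calls of 9530082P21Rik (0.0852) and AC153541.3 (0.0522) ended, and that fit called 2 lincRNAs, both lower. The call of AC153541.3 also ended with pseudocounts of 0.1 (0.0577) and 5 (0.0585). With 1 library of the arms left out, 9530082P21Rik kept its call only without irradiated day 3 replicate 3 or irradiated day 6 replicate 1 (elsewhere 0.0589 to 0.116). AC153541.3 kept it without control day 6 replicate 1, control day 9 replicate 2, irradiated day 6 replicate 3 or irradiated day 9 replicate 3 (elsewhere 0.0659 to 0.143), and Gm27010 without control day 6 replicate 1, control day 9 replicate 3, irradiated day 6 replicate 3 or irradiated day 9 replicate 1 (elsewhere 0.0505 to 0.0984). The count of called lincRNAs was 0 without control day 3 replicate 1 or 3, irradiated day 3 replicate 2 or irradiated day 9 replicate 2. It was 1 without irradiated day 3 replicate 3, irradiated day 6 replicate 1 or irradiated day 9 replicate 1 or 3, 5 without control day 9 replicate 3, 6 without control day 6 replicate 1 and 10 without irradiated day 6 replicate 3.

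At day 3, 0 of the 154 lincRNAs passed the limma test, against 1.85% of all genes (1.56% higher and 0.288% lower). In that test 9 of the 154, and 1741 of all 15271 tested genes, had an unadjusted p under 0.05. At day 6, 0 passed, against 0.275% of all genes (0.151% higher and 0.124% lower). There 15 of the 154, and 2345 of all 15271 tested genes, had an unadjusted p under 0.05 in the limma test. On recovered fragments with limma-voom the count was 0 at both days. At day 6 Snhg6 came nearest, a snoRNA host that contains Snord87. It had 24.8 and 20.7 FPKM in irradiated skin at day 6, against 15.8 and 13.1 FPKM in control skin. The groups did not overlap, and the difference was 0.62 (SE 0.12, adjusted p 0.0574). Without irradiated day 6 replicate 3 the Snhg6 difference was 0.74 (adjusted p 0.012), and 5 lincRNAs were called in that fit.

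Marker lists also differed between the arms at these days. The 2 red blood cell markers summed to 1.56 to 7.49 FPKM in irradiated skin at day 3, against 137.3 to 184.9 FPKM in control skin, and to 0.316 to 1.04 FPKM in irradiated skin at day 6, against 73.6 to 117.3 FPKM in control skin. Both were called lower at day 3, at day 6 and averaged over days. The 4 targets of p53, the transcription factor of the DNA damage response, summed to 343.1 to 369.2 FPKM in irradiated skin at day 3, against 170.7 to 188.0 FPKM in control skin, and to 276.2 to 304.7 FPKM in irradiated skin at day 6, against 161.5 to 162.1 FPKM in control skin. Of these 4, 3 were called higher at day 3, 0 at day 6 and 4 averaged over days. Averaged over days, 1 of 3 leukocyte, 1 of 2 adipocyte, 2 of 2 mast cell and 4 of 4 interferon response genes were called higher. The part of these lists in the lincRNA differences was not tested.

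At day 9 the lincRNAs Zfp469, Gm27042 and AC154573.2 were lower in irradiated skin and none was higher. These 3 of 154 (1.95%) compare with 5.38% of all genes called, of which 3.05% were lower and 2.33% higher. The median change of the lincRNAs was -0.03, against 0.02 over all genes. Zfp469 (chr8:122269569-122272650, plus strand) is a zinc finger gene whose human counterpart is mutated in brittle cornea syndrome, and RefSeq lists it as protein coding. It had 5.34, 4.42 and 3.23 FPKM in irradiated skin, against 8.93, 10.3 and 9.45 FPKM in control skin. Every irradiated library was below every control library, with means of 4.33 ± 1.06 and 9.58 ± 0.71 FPKM (SD, n = 3 each), and the change was -1.01 (SE 0.25, adjusted p 0.0398).

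Gm27042 (chr19:40589435-40594862, plus strand), which lies 972 bases from the opposite-strand proline synthesis gene Aldh18a1, had 1.30, 1.59 and 1.14 FPKM in irradiated skin at day 9, against 2.25, 2.81 and 2.70 FPKM in control skin. Its change was -0.61 (SE 0.14, adjusted p 0.0277). AC154573.2 (chr14:24438987-24446403, minus strand), which lies 2293 bases from the RNA polymerase III subunit gene Polr3a, had 3.19, 2.70 and 2.59 FPKM in irradiated skin at day 9, against 3.53, 5.37 and 4.58 FPKM in control skin. Its change was -0.51 (SE 0.13, adjusted p 0.0394). For both transcripts all irradiated libraries lay below all control libraries.

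Zfp469 lost its call without any day-9 library except irradiated day 9 replicate 1 (adjusted p 0.0661 to 0.167), and Gm27042 without any except irradiated day 9 replicate 2 (0.0518 to 0.123). AC154573.2 lost its call without replicate 2 or 3 of either arm (0.0757 to 0.168). The count was 0 without control day 9 replicate 2 or irradiated day 9 replicate 3, 1 without control day 9 replicate 1 or irradiated day 9 replicate 2, and 2 without control day 9 replicate 3. With no filter on low values all 3 calls ended (0.0578 to 0.0775), with pseudocount 0.1 that of Zfp469 (0.0747), and that of AC154573.2 on recovered fragments (0.0907) and with only the groups compared (0.09).

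The sums of marker lists also differed between the day-9 arms. The 3 fibroblast markers summed to 2582 to 4789 FPKM in irradiated skin and 5260 to 6432 FPKM in control skin, the 2 adipocyte markers to 36.6 to 112.7 FPKM in irradiated skin and 9.33 to 16.04 FPKM in control skin, and the 2 mast cell markers to 75.6 to 162.7 FPKM in irradiated skin and 17.8 to 18.9 FPKM in control skin. The 4 keratinocyte markers summed to 12083 to 13278 FPKM in irradiated skin and 5968 to 11139 FPKM in control skin, the 2 red blood cell markers to 43.8 to 67.5 FPKM in irradiated skin and 69.4 to 173.8 FPKM in control skin, and the 4 p53 targets to 228.4 to 251.0 FPKM in irradiated skin and 113.8 to 153.2 FPKM in control skin. For each list in this paragraph the sums did not overlap between the arms. In the limma test 2 of the 4 p53 targets were higher, and none of the keratinocyte or red blood cell markers passed. None of the 3 fibroblast markers passed, 1 of the 2 adipocyte markers was higher and both mast cell markers were higher. None of these markers was at 0 in any library. Their part in the lincRNA differences was not tested.

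Gm17501 and Bvht are given after their values were seen. Gm17501 (chr3:145650312-145677580, plus strand) lies 331 bases from Cyr61, the gene of a matrix-associated signalling protein read in the opposite direction. It had 4.63, 2.69 and 2.09 FPKM in irradiated skin at day 9, against 5.56, 7.52 and 5.02 FPKM in control skin, a difference of -0.80 (SE 0.22, adjusted p 0.0536). Without irradiated day 9 replicate 1 it was -1.04 (adjusted p 0.0209). Cyr61 itself differed by -1.13 at day 9 (adjusted p 0.0879). Bvht, a lincRNA of mouse heart development, had 8.87, 10.4 and 9.47 FPKM in irradiated skin at day 9, against 13.4, 15.1 and 13.5 FPKM in control skin, a difference of -0.50 (SE 0.14, adjusted p 0.0589). The arms did not overlap for either gene. After median-of-ratios scaling both passed (Gm17501 adjusted p 0.0458, Bvht 0.0197).

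**Figure D3:**
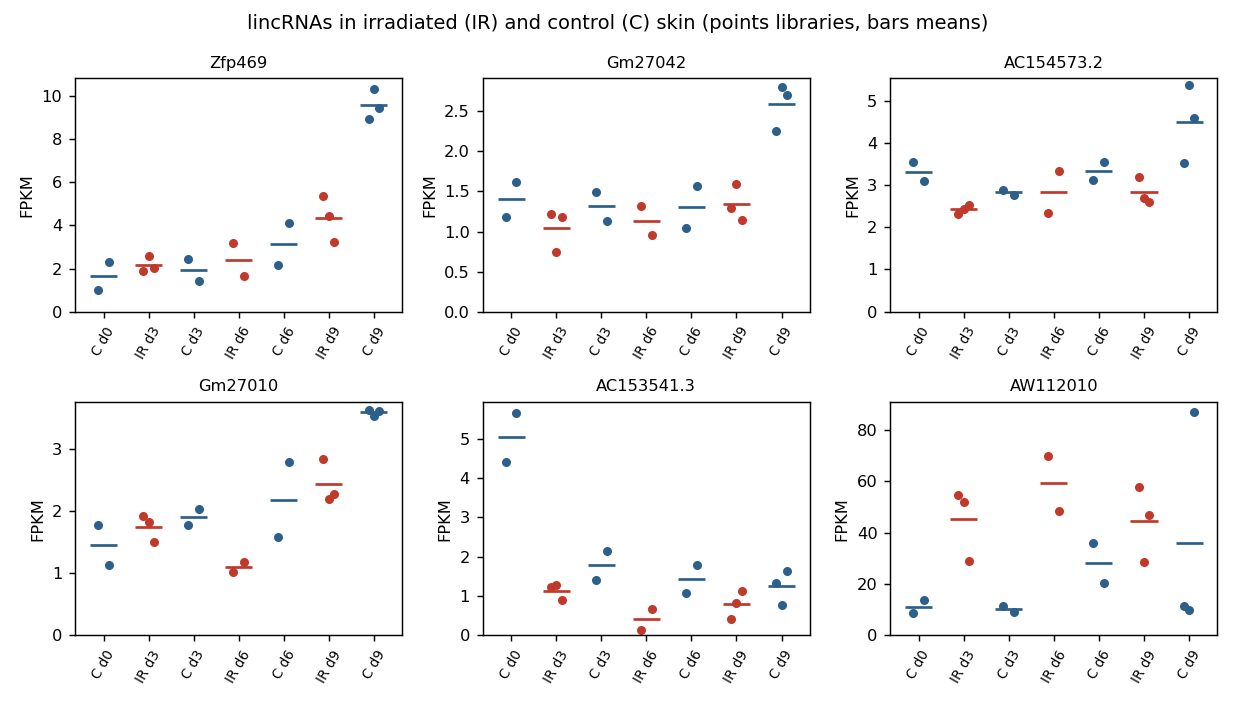
FPKM of 6 lincRNAs in each library (points) with group means (bars) for control day 0 and then irradiated (IR, red) and control (C, blue) skin at days 3, 6 and 9. Zfp469, Gm27042 and AC154573.2 are lower in all irradiated than in all control libraries at day 9, and 1 control day-9 library has 87.0 FPKM of AW112010.

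AW112010 had the widest spread among the 6 most abundant lincRNAs. It had 54.8, 52.1 and 28.9 FPKM in irradiated skin at day 3, against 11.4 and 8.98 FPKM in control skin. At day 6 it had 70.1 and 48.4 FPKM in irradiated skin, against 36.2 and 20.4 FPKM in control skin. At day 9 it had 57.8, 28.6 and 47.1 FPKM in irradiated skin, against 11.6, 9.80 and 87.0 FPKM in control skin. The arms did not overlap at days 3 and 6, and at day 9 control replicate 3 exceeded every irradiated library. The averaged difference was 1.34 (SE 0.41, adjusted p 0.0734), and by day it was 2.0 (adjusted p 0.257), 1.07 (0.53) and 0.94 (0.408). Without control day 9 replicate 3 the averaged change was 1.66 (adjusted p 0.000882) and the day-9 change 1.91 (adjusted p 0.0111).

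That control library was also the highest of the control day-9 libraries in the pan-leukocyte gene Ptprc, at 11.5 FPKM, against 3.37 and 3.85 FPKM in the other 2, and in Mir142hg, at 11.7 FPKM, against 3.50 and 4.03 FPKM. The 4 interferon response genes summed to 542 to 933 FPKM in irradiated skin at day 3, against 28.1 to 74.1 FPKM in control skin. At day 9 they summed to 142 to 466 FPKM in irradiated skin, against 23.6 to 59.95 FPKM in control skin, control replicate 3 being the highest of the control libraries. All 4 were called higher in irradiated skin at days 3 and 9. Whether AW112010 follows these genes was not tested.

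None of the 6 most abundant lincRNAs was called between the arms. Malat1 differed by 0.07, 0.17 and 0.22 at days 3, 6 and 9, Neat1 by -0.35, 0.13 and 0.16, and 2900097C17Rik by -0.05, -0.02 and -0.14, none of them called. The signs at day 6 of all 3, and that of Malat1 at day 3, turned with single libraries left out. An F test asked whether irradiated and control skin differed to unequal extents on the 3 days. It called 0 of the 154 lincRNAs and 0.0131% of all genes. At an unadjusted p under 0.05 it held 11 of the 154 and 2337 of all 15271 tested genes. The lowest adjusted p values were those of Snhg6 (0.19), Gm38079 (0.243), AC125351.1 (0.243) and Gm14005 (0.248). Without irradiated day 6 replicate 3 the count was 1. limma-voom also called 0 in this test. Between irradiated day 9 and irradiated day 3, both limma-trend and limma-voom called 0 lincRNAs. By limma-trend 0.963% of all genes were called (0.38% higher and 0.583% lower). In limma-trend 21 of the 154, and 2472 of all 15271 tested genes, had an unadjusted p under 0.05.

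The wound itself was followed in control skin. More lincRNAs were called between days there than between arms, and most of those called were lower after injury than at day 0. At control day 3, 41 of 154 lincRNAs (26.6%) were called against day 0, 11 higher and 30 lower, beside 38.1% of all genes, of which 25.8% were higher and 12.4% lower. At control day 9, 57 of 154 (37%) were called against day 0, 20 higher and 37 lower, beside 48.4% of all genes, of which 30.4% were higher and 18% lower. Both comparisons use the same 2 day-0 libraries. Of the 154, 20 were at 1 FPKM in neither of them and were thus chosen through later libraries alone. The median change of the lincRNAs was -0.07 at day 3 and -0.04 at day 9, while that of all genes was 0.16 and 0.15. Median-of-ratios scaling moved the medians of all genes to 0 and 0.04 and those of the lincRNAs to -0.20 and -0.12. Under it 7 lincRNAs were higher and 41 lower at day 3, a share higher of 14.6% in place of 26.8%. At day 9 it gave 15 higher and 48 lower, a share of 23.8% in place of 35.1%. The same scaling moved the share higher among all called genes from 67.6% to 44.9% at day 3 and from 62.8% to 50.8% at day 9. The shift toward lower calls was thus not particular to the lincRNAs. Without control day 3 replicate 1 the day-3 count was 23, and without control day 0 replicate 1 the day-9 count was 37.

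**Figure D4:**
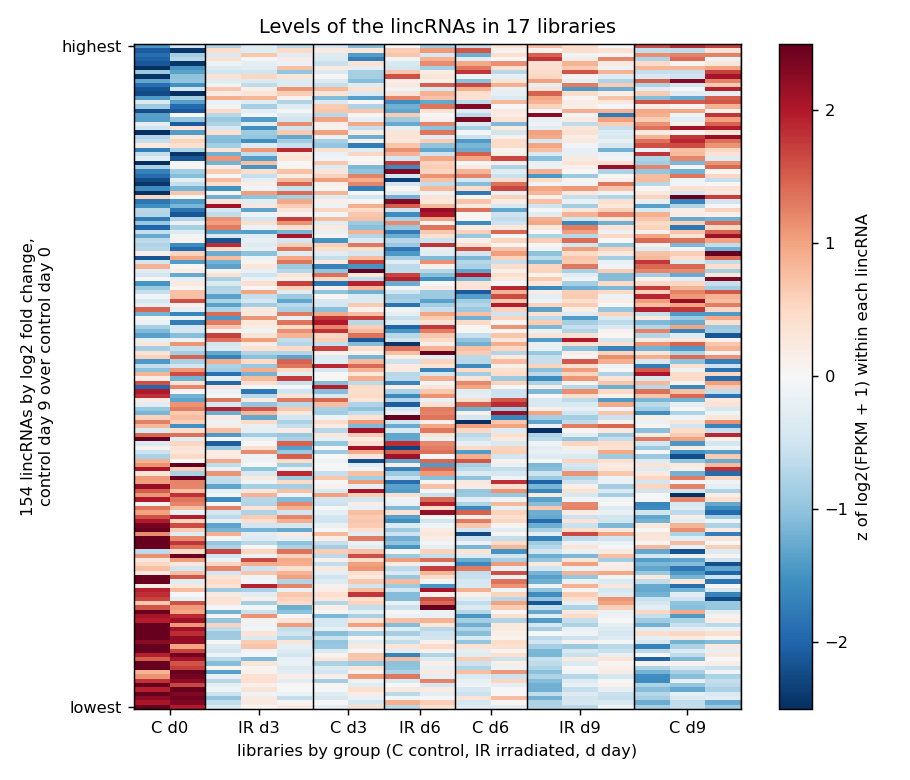
Level of each of the 154 lincRNAs (rows) in each of the 17 libraries (columns, by group), as the z score of log2(FPKM + 1) within the lincRNA, with rows ordered by the log2 fold change of control day 9 over control day 0. Control days 0 and 9 set the row order, so the blue head and red foot of the day-0 columns follow from it.

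Among the transcripts that fell, several stood far higher at day 0 than at any later day. 5430431A17Rik (chr7:44484517-44485413, plus strand) had 18.9 and 21 FPKM in control skin at day 0, 3.17 and 3.78 FPKM at day 3, and 2.21, 3.24 and 3.50 FPKM at day 9. The day-0 libraries were above those of both later days, and its changes from day 0 were -2.23 at day 3 (SE 0.29, adjusted p 0.000173) and -2.41 at day 9 (SE 0.27, adjusted p 2.89e-05). In irradiated skin it stood at 1.61 to 5.02 FPKM at days 3 to 9.

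Gm44386 (chr6:86513891-86516273, minus strand) had 16.3 and 9.06 FPKM in control skin at day 0, 1.35 and 2.59 FPKM at day 3, and 0.606, 0.868 and 0.505 FPKM at day 9. Its changes from day 0 were -2.18 (SE 0.35, adjusted p 0.000568) at day 3 and -3.0 (SE 0.32, adjusted p 2.47e-05) at day 9. Gm12319 (chr11:70654741-70656493, minus strand), which lies 97 bases from the actin-binding gene Pfn1 on the same strand, had 3.24 and 2.93 FPKM at control day 3, against 27.2 and 12.9 FPKM at day 0, a change of -2.28 (SE 0.37, adjusted p 0.00063). 2310075C17Rik (chr9:112227579-112228242, plus strand), which overlaps the opposite-strand gene Arpp21, had 0.898, 1.66 and 0.886 FPKM at control day 9, against 11.2 and 13.4 FPKM at day 0, a change of -2.64 (SE 0.22, adjusted p 7.1e-06). The day-0 libraries were above all others for each of these 3 transcripts. None of the alternative settings run ended the calls of 5430431A17Rik, Gm44386, Gm12319 and 2310075C17Rik given here.

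Gm28653, Prr33, Lsmem2 and 2310040G24Rik were picked after their values were seen, Gm28653 and Prr33 for the muscle microRNAs or muscle gene at their locus. They are set beside the 3 muscle markers, all of which were called lower at days 3 and 9 than at day 0. The markers summed to 9778 to 11494 FPKM at day 0, 1537 to 2234 FPKM at control day 3 and 616 to 1071 FPKM at control day 9. The host of miR-206 and miR-133b, Gm28653, had 3.74 and 10.8 FPKM in control skin at day 0, 1.48 and 2.31 FPKM at day 3, and 0.758, 1.11 and 2.005 FPKM at day 9. Its changes from day 0 were -1.38 at day 3 (SE 0.46, adjusted p 0.0323) and -1.74 at day 9 (SE 0.42, adjusted p 0.00471). Both calls ended without control day 0 replicate 2 (-0.72 with adjusted p 0.26, and -1.09 with adjusted p 0.0714), and that at day 3 also without either control day-3 library (0.0618 and 0.17), with no filter on low values (0.071), with pseudocount 0.1 (0.0624) and in a fit of only the groups compared (0.135).

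Prr33 (chr7:142491074-142506771, minus strand) overlaps the fast troponin gene Tnnt3, read from the opposite strand. Because the libraries do not mark strand, reads from the overlap of Prr33 and Tnnt3 cannot be told apart. Their values are therefore not separate measurements there. Prr33 had 26.1 and 18.2 FPKM in control skin at day 0, 3.96 and 4.52 FPKM at day 3, and 9.06, 9.43 and 8.92 FPKM at day 9, with no overlap between these 3 groups. Its changes from day 0 were -2.12 at day 3 (SE 0.28, adjusted p 0.000164) and -1.17 at day 9 (SE 0.25, adjusted p 0.00233). Tnnt3 changed by -2.69 at day 3 and -3.65 at day 9. From control day 3 to day 9 Prr33 rose by 0.95 (SE 0.25, adjusted p 0.0225), while Tnnt3 stood at -0.96 (adjusted p 0.0653). That call of Prr33 ended without either control day-3 library (0.123 and 0.124) or without control day 9 replicate 1 (0.0523) or 2 (0.0648). Lsmem2, which RefSeq lists as protein coding, had 1.5, 1.28 and 1.66 FPKM at control day 9, against 12.9 and 6.54 FPKM at day 0, a change of -2.05 (SE 0.25, adjusted p 5.95e-05). 2310040G24Rik, with no assigned role, had 3.27, 4.54 and 4.10 FPKM at control day 9, against 28.0 and 21.7 FPKM at day 0, a change of -2.38 (SE 0.18, adjusted p 4.57e-06). The part of muscle content in these changes was not tested.

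The Prr33 promoter, from 250 bases before to 50 after its RefSeq start (GRCm38.p6, chr7:142506722-142507021, minus strand), is printed because the gene overlaps a muscle gene and changed with day. The capitals mark the motif CAGCTG, an E-box that reads the same on both strands and is of the kind bound by muscle bHLH factors. It occurred in 16.3% of 32851 mouse promoters of this length and in 18.8% of the 69 members with a RefSeq promoter entry. The match describes the sequence and is not evidence of binding.
Prr33: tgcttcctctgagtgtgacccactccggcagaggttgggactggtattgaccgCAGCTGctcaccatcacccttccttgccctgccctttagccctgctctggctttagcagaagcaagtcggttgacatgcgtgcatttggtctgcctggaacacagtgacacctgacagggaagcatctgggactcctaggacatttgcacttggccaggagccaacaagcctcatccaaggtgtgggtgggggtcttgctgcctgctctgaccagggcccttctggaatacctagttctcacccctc
The Gm17501 promoter (chr3:145649827-145650126, plus strand) is printed because Cyr61 lies close to it on the other strand. By the positions in the deposited table, the Cyr61 start falls inside the printed bases. The capitals mark TATAAA read from the strand opposite Gm17501, which is the strand of Cyr61. On that strand the motif lies before the Cyr61 start, so it cannot be assigned to Gm17501. Searched on both strands, TATAAA occurred in 13.6% of all promoters and 14.5% of the 69 members. The RefSeq start used here lies 235 bases before the start that the deposited table gives.
Gm17501: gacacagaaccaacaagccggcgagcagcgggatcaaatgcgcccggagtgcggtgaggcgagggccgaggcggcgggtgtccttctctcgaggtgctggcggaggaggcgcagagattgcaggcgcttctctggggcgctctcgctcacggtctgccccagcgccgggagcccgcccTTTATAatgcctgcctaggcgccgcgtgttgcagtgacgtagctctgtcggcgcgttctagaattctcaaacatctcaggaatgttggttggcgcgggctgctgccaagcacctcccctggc

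Fewer lincRNAs rose after injury. AC108846.4 (chr9:122422136-122423376, plus strand) rose the most at day 3. It had 0.637 and 0.271 FPKM in control skin at day 0, 7.30 and 7.65 FPKM at day 3, 20.4 and 6.67 FPKM at day 6, and 3.69, 3.56 and 8.18 FPKM at day 9. Every control library after injury was above both day-0 libraries, and the changes were 2.55 at day 3 (SE 0.45, adjusted p 0.000953) and 2.01 at day 9 (SE 0.41, adjusted p 0.0016). Irradiated libraries held 4.70 to 14.0 FPKM. Its values rest on 2 to 141 fragments per library.

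AC133598.5 (chr13:39877035-39884381, minus strand) had 0.726 and 0.530 FPKM in control skin at day 0, 2.2 and 3.56 FPKM at day 3, and 3.77, 3.06 and 3.47 FPKM at day 9. Its changes from day 0 were 1.23 at day 3 (SE 0.24, adjusted p 0.0016) and 1.45 at day 9 (SE 0.21, adjusted p 0.000199). Gm45518 (chr8:64701107-64711076, minus strand) rose at day 3 and was back near its day-0 level at day 9. It had 0.289 and 0.117 FPKM in control skin at day 0, 1.57 and 1.41 FPKM at day 3, and 0.554, 0.197 and 0.196 FPKM at day 9, with a change of 1.05 at day 3 against day 0 (SE 0.26, adjusted p 0.00688). These transcripts have no assigned role. The calls of AC108846.4, AC133598.5 and Gm45518 against day 0 held under each alternative setting. Each was under 1 FPKM in both day-0 libraries, so it met the rule of 8 libraries only through libraries after injury. Their rise from day 0 is therefore tied to how they were chosen, and these calls are not independent of that choice.

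**Figure D5:**
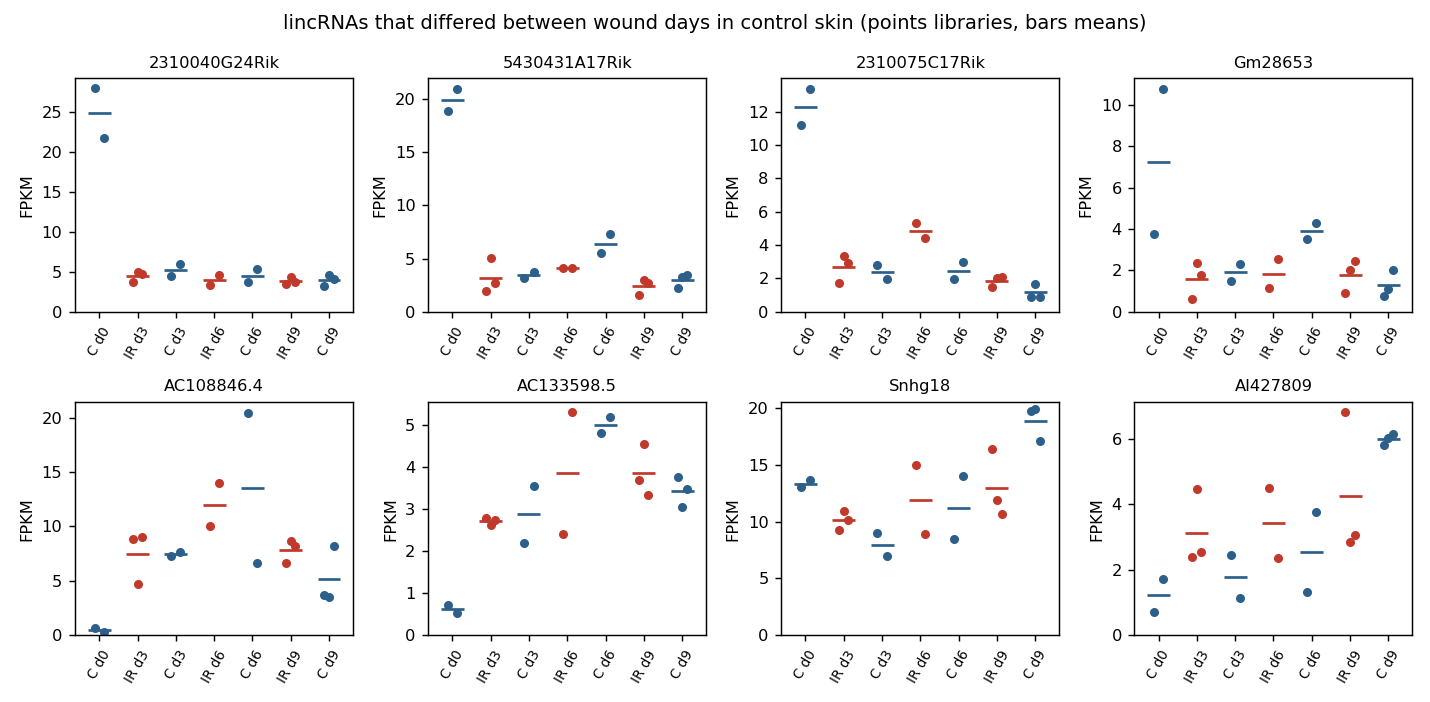
FPKM of 8 lincRNAs in each library (points) with group means (bars) for control day 0 and then irradiated (IR, red) and control (C, blue) skin at days 3, 6 and 9. The 4 in the upper row are highest on average at day 0, AC108846.4 and AC133598.5 are lowest there, and Snhg18 and AI427809 have their highest group mean in control skin at day 9.

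Between control day 9 and control day 3, 18 of 154 lincRNAs (11.7%) were called, 13 higher and 5 lower, beside 18.2% of all genes, of which 8.02% were higher and 10.2% lower. The median change was -0.08 among the lincRNAs and -0.07 among all genes. Median-of-ratios scaling moved the share of called genes that were higher from 44.0% to 58.2% over all genes, and the lincRNA split to 15 higher and 4 lower. The count fell to 1 without control day 3 replicate 3, to 7 without control day 3 replicate 1, to 9 without control day 9 replicate 2 and to 10 without control day 9 replicate 1.

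Zfp469 rose the most in this interval, by 1.87 (SE 0.28, adjusted p 0.00179), with 0.982 and 2.28 FPKM at day 0, 2.44 and 1.42 FPKM at control day 3, and 8.93, 10.3 and 9.45 FPKM at control day 9. Against day 0 the change was 2.05 (SE 0.28, adjusted p 0.000109). AI427809 (chr4:53261356-53270232, minus strand) had 0.713 and 1.73 FPKM in control skin at day 0, 2.44 and 1.14 FPKM at day 3, and 5.81, 6.04 and 6.16 FPKM at day 9. Its change at day 9 was 1.37 against day 3 (SE 0.39, adjusted p 0.0314) and 1.70 against day 0 (SE 0.39, adjusted p 0.0035). Gm17501, chosen after its values were seen, rose by 1.15 (SE 0.24, adjusted p 0.00871) between days 3 and 9, while Cyr61 stood at 1.22 (adjusted p 0.054). For all of these, every day-9 library was above every day-3 library. The 3 fibroblast markers summed to 5260 to 6432 FPKM at control day 9 and 957 to 1557 FPKM at control day 3, and 2 of 3 were called higher. Their part was not tested. The call of AI427809 ended when low values were not filtered (0.0641) and when any library of the 2 groups was left out (0.0533 to 0.273), and that of Gm17501 without control day 3 replicate 3 (0.122).

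The lincRNAs that fell from control day 3 to day 9 were led by 5730419F03Rik (chr1:78595031-78609508, minus strand), with 0.218, 0.518 and 0.725 FPKM at day 9, against 1.68 and 3.06 FPKM at day 3, a change of -1.16 (SE 0.30, adjusted p 0.0207). Gm45518 changed by -0.93 (SE 0.23, adjusted p 0.0184). 4930429F24Rik (chr9:79793641-79803235, plus strand), which lies 134 bases from the opposite-strand flippase subunit gene Tmem30a, had 1.26, 1.05 and 1.57 FPKM at day 9, against 2.73 and 3.68 FPKM at day 3, a change of -0.87 (SE 0.19, adjusted p 0.0106). Day-9 libraries were below all day-3 libraries for each of the 3. Without control day 3 replicate 3 all 3 calls ended (0.119 to 0.225). Those of 5730419F03Rik and Gm45518 also ended without control day 9 replicate 2 (0.0538 and 0.0616), that of 5730419F03Rik without control day 9 replicate 1 (0.0654) and with pseudocount 5 (0.0572), and that of Gm45518 without control day 3 replicate 1 (0.0998).

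The snoRNA host list held 6 members among the lincRNAs, Epb41l4aos, Snhg6, Snhg12, Snhg18, Snhg20 and Gm26917. Host genes release snoRNAs, many of which guide the modification of ribosomal RNA, from their introns. No snoRNA was found inside Gm26917 by coordinates. Between irradiated and control skin 0 of the 6 were called averaged over days, against 6.93% of all genes, and 0 at days 3, 6 and 9, against 1.85%, 0.275% and 5.38% of all genes. Snhg18 (chr15:32240565-32244662, minus strand), which contains Snord123 and lies 151 bases from Sema5a, had 13.1 and 13.6 FPKM in control skin at day 0, 8.98 and 6.97 FPKM at day 3, and 19.7, 19.9 and 17.1 FPKM at day 9, with no overlap among the 3 groups. It rose by 1.15 from control day 3 to day 9 (SE 0.23, adjusted p 0.00662), a call that ended without control day 3 replicate 3 (0.101). Against day 0 it was lower at control day 3, with a change of -0.69 (SE 0.25, adjusted p 0.0485). That call ended without any of the 4 libraries compared (0.0729 to 0.234), with pseudocount 5 (0.0558), no filter (0.0968), only the groups compared (0.0658) and recovered fragments (0.0551).

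Snhg20 had 4.54 and 4.53 FPKM at control day 3, against 8.18 and 7.01 FPKM at day 0, a change of -0.63 (SE 0.17, adjusted p 0.0119). The call ended without control day 0 replicate 1 or either control day-3 library (0.0522 to 0.0832) and with only the groups compared (0.0563). Gm26917, a transcript beside a ribosomal RNA sequence whose reads may be shared with other copies, had 8.2, 6.19 and 11.02 FPKM at control day 9, against 14.8 and 15.2 FPKM at day 3, a change of -0.79 (SE 0.24, adjusted p 0.0419). It ended after median-of-ratios scaling (0.06), with no filter (0.0801), with only the groups compared (0.0696) and without either control day-3 library (0.14 and 0.211) or control day 9 replicate 1 (0.0873) or 2 (0.133). Snhg6, Snhg12 and Epb41l4aos were called in no comparison. Snhg12, which contains Snora16a, Snora44, Snora61 and Snord99, stayed between 5.35 and 9.83 FPKM in all libraries.

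Of the nuclear body RNAs, Neat1 (chr19:5824708-5845478, minus strand) fell at control day 9 against day 0 by 0.74 on the log2 scale (SE 0.21, adjusted p 0.0117). It had 34.3, 35.2 and 42.0 FPKM at control day 9, against 71.3 and 54.8 FPKM at day 0, without overlap. The call ended without control day 0 replicate 1 (-0.56, adjusted p 0.119). The 5 paraspeckle protein genes of a fixed list summed to 136.0 to 149.3 FPKM at control day 9, against 84.4 to 98.5 FPKM at day 0, and all 5 were called higher. Malat1 (chr19:5795690-5802672, minus strand) had 28.1, 33.3 and 29.5 FPKM at control day 9, against 35.6 and 41.7 FPKM at day 0. Its difference of -0.34 (SE 0.17, adjusted p 0.112) was not called, but passed after median-of-ratios scaling (adjusted p 0.0155).

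Among the microRNA hosts, E130102H24Rik with miR-101a, named after its values were seen, had 6.42 and 6.32 FPKM in control skin at day 0, 1.85 and 2.5 FPKM at day 3, and 2.37, 1.70 and 1.77 FPKM at day 9. It fell by 1.22 at day 3 (SE 0.19, adjusted p 0.000485) and by 1.33 at day 9 (SE 0.17, adjusted p 8.67e-05). Mir142hg had 3.50, 4.03 and 11.7 FPKM at control day 9, against 0.877 and 3.12 FPKM at day 0. Its change of 1.25 (SE 0.49, adjusted p 0.05) lay just under the threshold before rounding. It ended without control day 9 replicate 3 (0.78, adjusted p 0.169), without control day 0 replicate 1 (0.68, adjusted p 0.389) and under 7 other settings. The 3 leukocyte markers summed to 1256 to 1769 FPKM at control day 9 and 159 to 766 FPKM at day 0. Their part was not tested.

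Mir17hg held between 1.63 and 4.09 FPKM in all 17 libraries, and it was called in no comparison. 4631405K08Rik, the host of miR-205, held 0.547 to 3.85 FPKM and was called in none. Gm27028, with miR-30c, was called lower at control day 9 than at day 0. That call ended with no filter on low values (-0.815, adjusted p 0.0749). 2900076A07Rik, with miR-1839, was called lower at control day 3 than at day 0. That call ended with only the groups compared (-0.779, adjusted p 0.0623). 4631405K08Rik, Gm27028 and 2900076A07Rik were named after their values were seen. The remaining role lists held few members. 2900097C17Rik, the only member on the DNA damage list, was 39.3 and 38.2 FPKM at control day 3, against 44.7 and 54.6 FPKM at day 0, a change of -0.34 (SE 0.12, adjusted p 0.0335). That call ended without control day 0 replicate 2 (0.221) or either control day-3 library (0.101 and 0.126) and with only the groups compared (0.183). 1810058I24Rik, the mitochondrial microprotein gene, had 41.2 and 35.4 FPKM in control skin at day 0, 23.9 and 25.7 FPKM at day 3, and 26.4, 29.9 and 26.3 FPKM at day 9. Its changes from day 0 were -0.61 at day 3 (SE 0.11, adjusted p 0.00131) and -0.46 at day 9 (SE 0.10, adjusted p 0.00284), the first of which ended with only the groups compared (0.0624). The lists of imprinted RNAs and of RNase and telomerase RNAs held no member.

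By position, 17 of the 154 lincRNAs overlapped a protein-coding gene, 5 of them on the same strand. Another 36 lay within 1000 bases of one, 30 of these on the opposite strand. The median distance to the nearest protein-coding gene was 3742.5 bases. Chromosome 13 held the most members, 18 of 154.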

How the data were processed

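RNA of 17 skin libraries in 7 groups was prepared with the Smart-Seq2 method and sequenced as paired ends on an Illumina NovaSeq, per the labels' protocols. Reads were aligned to mm10 with HISAT2 2.2.1, per the submitters' processing notes. For the counting tool and the annotation, nothing is stated in the sources used here. The authors deposited FPKM per gene with a biotype and a position. Positions of 138 of the 154 lincRNAs equal those of GENCODE M21.

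From these values log2(FPKM + 1) was computed. A gene was tested if 2 or more libraries held 1 FPKM or more (15271 genes, all 154 lincRNAs included), and limma 3.58.1 (limma-trend, R 4.3.3) was fitted to all 17 libraries with 1 mean per group. P-values were adjusted by Benjamini and Hochberg over all tested genes in each of 9 comparisons. The script was tested on simulated data. Each library was grouped by its labelled treatment and day. Whole fragments were recovered as FPKM times exon length times library total, and with M21 lengths all values of 31476 genes, and 90.9% of all nonzero values, were whole within 0.01 fragments. limma-voom on these fragments called 7233 genes between control days 9 and 0, against 7398 by limma-trend. The recovered totals limit the precision, and the fragment counts given cover counting error only.

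Named lincRNAs were, in each comparison, the 3 highest and 3 lowest changes among those called (for the F test the 4 smallest adjusted p), the 6 with the highest mean, members of role lists with a common name, and those at the limit of the rule. Any other whose changes or calls are given is marked in the text as picked later. The 154 lincRNAs and the lists were chosen with earlier results of these data known. Alternatives were pseudocounts of 0.1 and 5, no filter, median-of-ratios scaling, only the groups compared, a replicate block, lincRNAs at 1 FPKM in all 17 libraries, and each library left out in turn. limma-voom and FPKM rescaled to nuclear genes were added once the data had been seen. Where a library is left out and its group has 1 left, that library is assumed to vary like the other groups. Tables were drawn up with pandas 2.3.3 and numpy 2.4.6 and plots with matplotlib 3.10.9.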

Additional observations from a re-analysis of the deposited data

Results flagged for a closer look

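In the 4 cases below the arms did not overlap on either day of a pair, and the difference changed sign between those days. They are not a full list. Gm38079 (0.77 at day 3 and -0.89 at day 6) and Snhg12 (-0.19 at day 3 and 0.34 at day 6) did the same. How many lincRNAs or genes did so was not counted, and with so few libraries per group arms can separate by chance. Snhg18 differed by 0.32 on the log2 scale at day 3 and by -0.53 at day 9 (irradiated over control). Snhg20 differed by -0.19 at day 3, 0.25 at day 6 and -0.31 at day 9, which gives the pairs of days 3 and 6 and of days 6 and 9. Snhg6 differed by 0.62 at day 6 and -0.18 at day 9. The difference between these pairs of days was not tested on its own. The limma F test over the 3 days gave adjusted p values of 0.317 for Snhg18, 0.354 for Snhg20 and 0.19 for Snhg6, so none passed.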

How the results depend on the processing

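Counts of called lincRNAs depended on the setting where they were small. Averaged over days the count was 3, against 0 with no filter on low values or on recovered fragments and 7 after median-of-ratios scaling. The counts over all genes moved as well, from 1058 to 1292 after median-of-ratios scaling and to 1022 on recovered fragments. For day 9 they were 822, against 1054 after median-of-ratios scaling and 884 after nuclear rescaling. All-gene counts under the remaining settings are not given here. At day 9 the lincRNA count was 3, against 5 with pseudocount 5, median-of-ratios scaling or nuclear rescaling, 0 with no filter and 1 among the 68 lincRNAs at 1 FPKM in all 17 libraries. At day 6 it was 0, against 1 with pseudocount 5 or nuclear rescaling. Control day 3 against day 0 gave 41 (22 among the 68), against 21 with only the groups compared. Control day 9 gave 57 against day 0 (24 among the 68) and 18 against day 3 (10 among the 68). The 68 are a smaller set, so a lower count among them need not mean a smaller share called. Those shares were not compared. Irradiated day 9 against day 3 gave 0, or 1 with only the groups compared. The causes were not tested. Over single libraries left out, the counts ran from 0 to 10 averaged over days, 0 to 0 at day 3, 0 to 5 at day 6, 0 to 4 at day 9, 0 to 1 in the F test, 23 to 45 for control day 3 against day 0, 37 to 54 for control day 9 against day 0, 1 to 16 for control day 9 against day 3, and 0 to 0 for irradiated day 9 against day 3.

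The labels do not say that replicate numbers pair the arms. Residuals of same-numbered libraries correlated with r from -0.122 to 0.298. Such residuals are taken from means of 2 or 3 libraries, so they cannot decide whether the arms were paired. A replicate block gave 6 called averaged over days and 7 at day 9. It passed Malat1 between control days 9 and 0 (0.0421) and Bvht (0.0334) and Gm17501 (0.0452) at day 9. It ended 9530082P21Rik (0.0541) and Gm27010 (0.0593) averaged over days, Mir142hg (0.0863) between control days 9 and 0, Snhg18 (0.115) and 2900097C17Rik (0.08) between control days 3 and 0 and Gm26917 (0.0599) between control days 9 and 3. Of 1019 alternative values for 76 named pairs of lincRNA and comparison, 846 kept direction and side of the threshold, 149 no longer passed and 16 passed where the value reported did not. Direction reversed in 8, all uncalled differences between irradiated and control skin near 0. With single libraries left out, Malat1 ran from -0.0303 (without irradiated replicate 3) to 0.159 at day 3 and from -0.0351 (without irradiated replicate 3) to 0.371 at day 6. At day 6 Neat1 ran from -0.277 to 0.528 and was -0.0279 without control replicate 2, and 2900097C17Rik ran from -0.146 to 0.103 and was 0.0303 without control replicate 2. A replicate block at day 6 gave -0.0152 for Neat1 and 0.0135 for 2900097C17Rik.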

Other observations

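The lincRNAs whose pattern over the 17 libraries was most like that of Malat1 were Gm12688 (Pearson's r 0.76), Gm16907 (0.75) and 2310020H05Rik (0.62). For Neat1 they were Epb41l4aos (0.77), 2310020H05Rik (0.71) and Gm44386 (0.70). These values describe log2(FPKM + 1) across libraries that share their depth and day structure, and no test was made. Several well-known noncoding RNAs of the lists, such as Gas5, Snhg1, Zfas1, Tug1 and Rian, are listed in the table under another biotype and were thus not included, and Trp53cor1, Pvt1 and Lncpint never reached 1 FPKM. Of the 3177 lincRNA rows, 2804 reached 1 FPKM in no library.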
